A study of Mus musculus with 49 samples.

Results

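The genes described here are the nuclear genes that encode the respiratory chain and ATP synthase of mitochondria. They were chosen by symbol, as those that begin with *Nduf* followed by a, b, c, s, or v, with *Uqcr*, with Cox and a digit from 4 to 8, or with Atp5, together with *Sdha*, *Sdhb*, *Sdhc*, and *Sdhd*. Of the 23992 gene symbols in the files, 92 matched. A symbol was kept when the longest transcript had a mean of at least 1 RPKM (reads scaled to the length of the transcript in kilobases and to the mapped reads of the library) over all libraries, which left 85 genes. By symbol, 37 of them encode subunits of complex I, 4 of complex II, 8 of complex III, 12 of complex IV, and 16 of complex V, and 8 (*Ndufaf1* to *Ndufaf7* and *Atp5sl*) encode assembly factors. *Ndufa4* was counted with complex I by its symbol, although its protein is now known as a subunit of complex IV. The 7 symbols under the threshold were *Cox8b*, *Cox8c*, *Cox7b2*, *Ndufa4l2*, *Cox4i2*, *Cox7a1*, and *Cox6b2*, of which the highest, *Cox6b2*, had a mean of 0.727 RPKM. The members just above the threshold were *Atp5s*, with a mean of 1.46 RPKM, and *Cox6a2*, with 2.84 RPKM.

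Complexes I and II take electrons from NADH and from succinate and pass them through ubiquinone to complex III, from which cytochrome c carries them to complex IV, where oxygen is reduced. Complexes I, III, and IV pump protons across the inner membrane, and complex V, the ATP synthase, uses the proton gradient to make ATP. Resting T cells have relatively few mitochondria, and T cells that receive a growth signal such as IL-2 enlarge both the mitochondrial pool and glycolysis before they divide.

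RNA was measured by RNA-seq in CD8+ T cells purified from mouse spleens. Mice of the *Stat5a* line were WT or homozygous for a knock-in (KI) allele in which the tyrosine of STAT5A that is phosphorylated on activation is replaced by phenylalanine, and mice of the *Stat5b* line were WT or homozygous for a KI allele with the same exchange in STAT5B. Phosphorylation of this tyrosine is what allows STAT5 proteins to dimerize after IL-2 binds its receptor. The cells of each genotype were collected without culture in IL-2 (0 hr) or after 4, 24, or 48 hr with 500 IU/ml IL-2, which gave 16 groups of 3 libraries. Both alleles were made by CRISPR/Cas9 in B6D2F1 zygotes and crossed to C57BL/6J, the strain on the labels, for 6 generations, the mice of both sexes were 8 to 24 weeks old, and WT mice were littermates of the KI mice. The KI alleles are point mutations present in every cell of the animal, so a KI effect in these cells can arise before or during culture, and the level of *Stat5a* or *Stat5b* mRNA does not check the labels. The labels do not say whether the libraries of a group came from separate mice, and the p-values then measure the spread between libraries, which may be technical.

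Values are given over 47 libraries, leaving out 1 library of *Stat5a* KI cells (4 hr, replicate 3), in which 5.68% of the mapped reads lay on the transcripts counted, against 44.9% to 84.4% in the others. The 47 libraries had 17369112 to 60200653 reads on these transcripts (median 41410666), and all 85 genes were among the 15566 that passed the filter on low counts. The T cell and CD8 genes *Cd3d*, *Cd3e*, *Cd3g*, *Cd8a*, and *Cd8b1* summed to 855 to 1244 RPKM in the 4 group means at 0 hr, so the labelled cell type was present in each group. Genes of other cell types were also present, at levels that differed between KI and WT cells, and their values are given after the KI comparisons. In RNA from a population, fewer cells of a type cannot be told apart from less RNA per cell. In the text a gene "rose" or "fell" when its edgeR adjusted p was at most 0.05, with the adjustment over all 15566 genes tested.

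At 0 hr the RPKM of the 85 genes summed to 5295 ± 207 (SD, n = 3) in WT cells of the *Stat5a* line and to 5567 ± 496 (SD, n = 3) in those of the *Stat5b* line. Complex V made up 1789 ± 89.4 and 1884 ± 168 of these sums, complex I 1368 ± 65.7 and 1461 ± 131.6, complex IV 1318 ± 27.1 and 1369 ± 126.1, complex III 629.2 ± 12.9 and 646.3 ± 56.6, and complex II 151.9 ± 12.1 and 165.6 ± 11.6 RPKM. The order of the summed levels was the same in both lines, although complexes I and IV overlapped between their libraries. Over the 47 libraries the gene with the highest mean level was *Atp5b* (335 RPKM), which encodes the catalytic beta subunit of ATP synthase. It was followed by *Cox4i1* (239 RPKM), a core-bound subunit of cytochrome c oxidase found in most tissues, and by *Cox7a2l* (215 RPKM), whose protein is related to that of *Cox7a2*. Assembly factors were far lower, with means of 2.90 to 13.7 RPKM.

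With 48 hr of IL-2 the mRNAs of all 5 complexes rose in WT cells. Of the 85 genes, 74 rose and 5 fell in the *Stat5a* line, against 34.1% and 37.7% of all genes tested, and 72 rose and 5 fell in the *Stat5b* line, against 33.1% and 36.8%. The median log2 fold change of the 85 genes was 0.81 in WT cells of the *Stat5a* line and 0.80 in those of the *Stat5b* line, while that of all genes tested was −0.12 and −0.13. A change of at least 2-fold was reached by 22 of the genes that rose and 2 that fell in the *Stat5a* line, and by 23 and 3 in the *Stat5b* line. The summed RPKM reached 9659 ± 505 and 9924 ± 341 (SD, n = 3), and no WT library at 48 hr overlapped those at 0 hr. The share of mapped reads on the transcripts counted was also higher at 48 hr, at 80.5% to 84.1% against 69.2% to 71.9% at 0 hr in the *Stat5a* line and 83.2% to 84.4% against 70.7% to 74.1% in the *Stat5b* line, and RPKM is scaled to all mapped reads. For 79 of the 85 genes (*Stat5a* line) and 75 (*Stat5b* line) every WT library at 48 hr had a higher RPKM than every WT library at 0 hr, a pattern found for 42.3% and 42.8% of all genes tested. RPKM and fold changes are on different scales: RPKM is per mapped read, whereas the fold changes come from counts with TMM normalization, which centres on the bulk of genes. In limma on log2(RPKM + 1), which has no such centring and tests 11735 genes with at least 1 RPKM in at least 3 libraries, the median of all genes at 48 hr was 0.24 and 0.18, the share of higher among the calls moved from 47.5% to 67.4% and from 47.3% to 63.4%, and the median of the respiratory chain genes was 1.00 and 0.95.

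**Figure D1:**
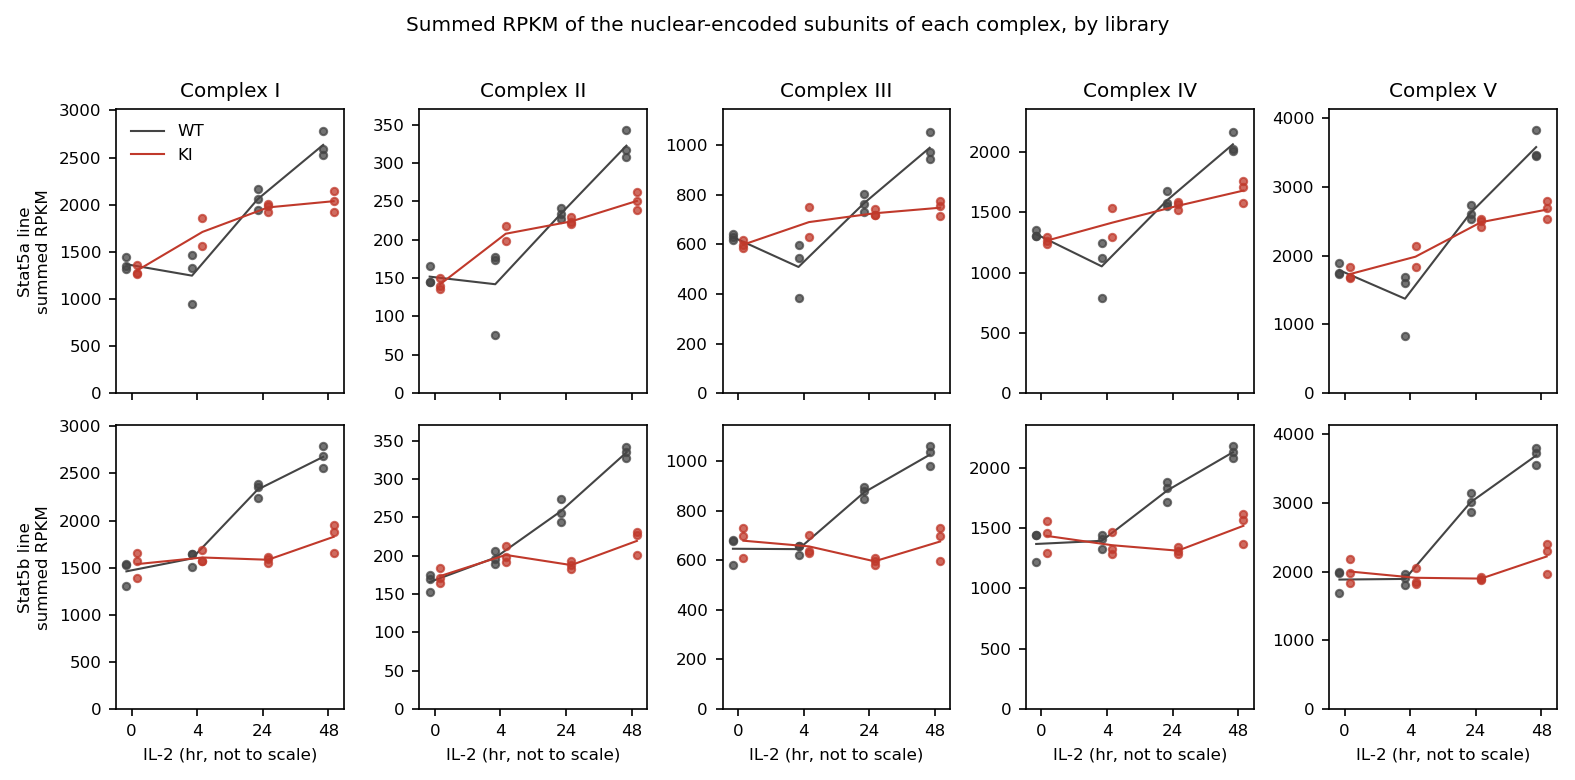
Summed RPKM (vertical axis, from 0) of the nuclear-encoded subunits of complexes I to V in each library, against hours of IL-2 (not to scale), for the *Stat5a* line (upper row) and the *Stat5b* line (lower row). Points are libraries, and lines join the group means of WT (dark) and KI (red) cells. At 48 hr every WT library lies above every KI library in all 5 complexes of both lines. The low point of the WT group at 4 hr in the *Stat5a* line is replicate 2.

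In WT cells most of the genes had not risen at 4 hr but had risen by 24 hr. At 4 hr, 11 of the 85 genes rose and 44 fell in the *Stat5a* line (29.5% and 28.9% of all genes), with a median of −0.23, and 9 rose and 19 fell in the *Stat5b* line (25.1% and 24.5%), with a median of −0.08. The falls at 4 hr depend on the setting. In the *Stat5a* line they numbered 18 with all 48 libraries and 14 in a fit of only the groups compared. In the *Stat5b* line 19 rose and 2 fell with limma on log2(RPKM + 1), 5 rose and 6 fell with all 48 libraries, and the falls numbered 30 in a fit of only the groups compared, 11 without 0 hr replicate 2 or 3, and 9 without 4 hr replicate 1. The WT libraries of the *Stat5a* line at 4 hr were unequal, with summed RPKM of 4817, 3049, and 5232. The lowest, replicate 2, had only 44.9% of its reads on the transcripts counted, and without it 13 genes rose and 38 fell. Without replicate 1 of the same group 19 rose and 36 fell. By 24 hr, 64 genes rose and 7 fell in the *Stat5a* line (30.1% and 28.9% of all genes; median 0.43 for the 85 genes and −0.04 for all), and 70 rose and 4 fell in the *Stat5b* line (29.5% and 30.1%; 0.52 and −0.04). *Uqcrh*, *Cox6a2*, *Cox7a2l*, and *Atp5sl* were among the genes that fell in both lines. The 7 falls of the *Stat5a* line became 4 without 24 hr replicate 1 or 2 and 2 with all 48 libraries. The median changes at 24 hr were smaller than those at 48 hr, a difference that was not tested, and only 3 and 5 genes had risen by 2-fold or more by 24 hr.

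Genes of each of the 5 complexes rose. In the *Stat5a* line 31 of 37 genes of complex I, 4 of 4 of complex II, 6 of 8 of complex III, 10 of 12 of complex IV, and 16 of 16 of complex V rose by 48 hr. The median log2 fold changes were 0.83, 0.98, 0.79, 0.70, and 0.85 from complex I to complex V. The *Stat5b* line gave 31, 4, 6, 10, and 14 genes that rose, with medians of 0.85, 0.92, 0.76, 0.74, and 0.81. The range of the genes inside a complex was wider than the distance between complexes, from −0.34 to 1.80 in complex I and from −2.27 to 1.48 in complex IV of the *Stat5a* line. Of the 8 assembly factors 7 rose in each line, with medians of 1.01 and 1.06.

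**Figure D2:**
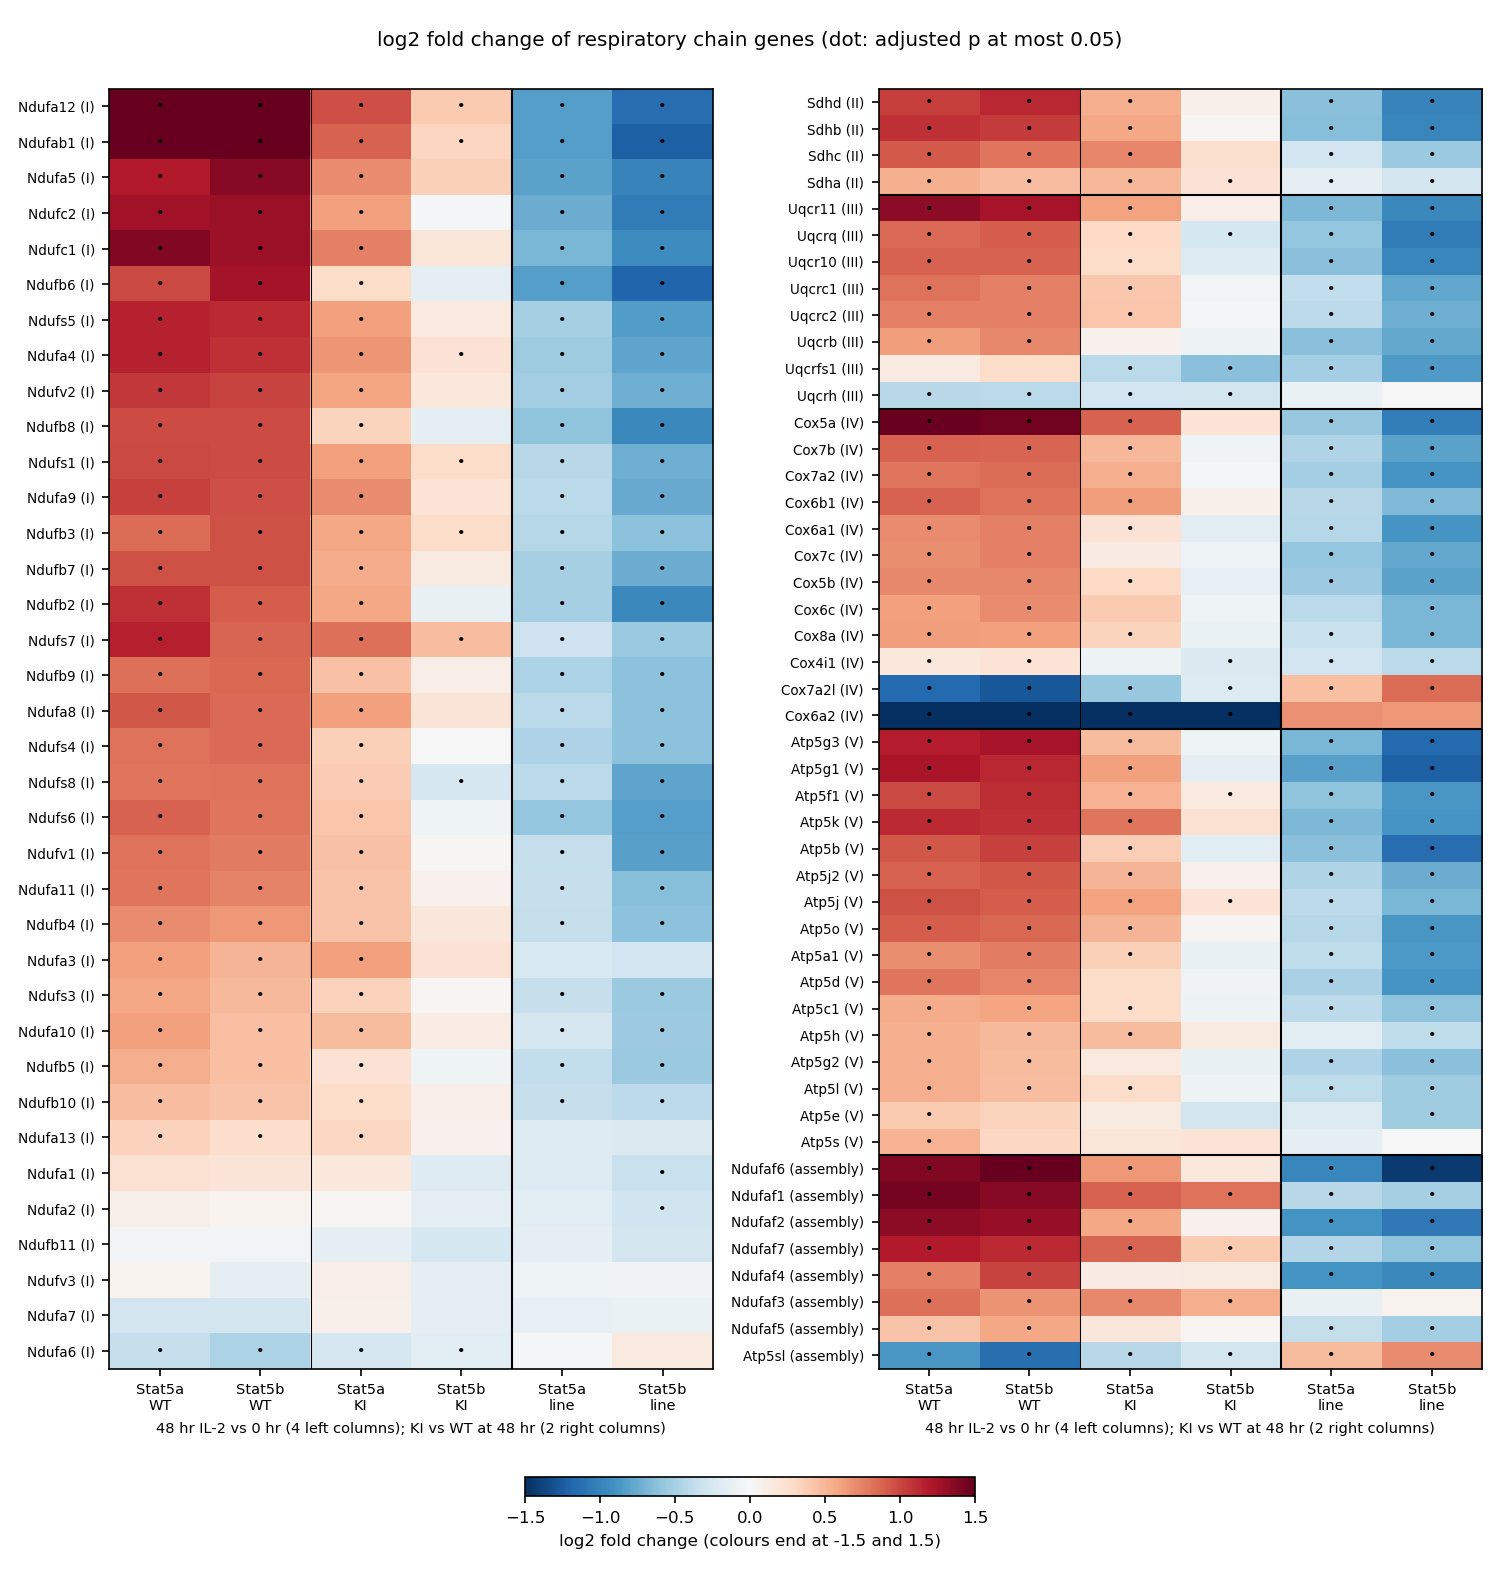
Heat map of the log2 fold changes of the genes reported by name (rows, grouped by complex), with 48 hr IL-2 against 0 hr in WT and KI cells in the 4 left columns and KI against WT at 48 hr in the 2 right columns of each panel. Red is higher and blue is lower, colours end at −1.5 and 1.5, and a dot marks an edgeR adjusted p of at most 0.05. Most rows are red in WT cells, paler in KI cells of the *Stat5a* line and near white in KI cells of the *Stat5b* line, and *Cox7a2l* and *Atp5sl* run in the opposite direction.

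Within complex I the largest rises were those of accessory subunits. *Ndufa12*, an accessory subunit of the matrix arm, was at 28.2, 29.6, and 31.1 RPKM at 0 hr in WT cells of the *Stat5b* line and at 110.98, 112.8, and 105.3 RPKM at 48 hr. In the *Stat5a* line it went from 25.4, 29.8, and 29.0 to 101.5, 120.7, and 115.9 RPKM. The 48 hr libraries were far above those at 0 hr in both lines, with log2 fold changes of 1.80 ± 0.17 (SE; adjusted p = 1.15e-11) and 1.72 ± 0.17 (adjusted p = 3.58e-11). *Ndufab1*, the acyl carrier protein of mitochondria and a subunit of complex I, rose by 1.61 ± 0.12 and 1.53 ± 0.12 on the log2 scale. Core subunits that carry electrons rose by less than *Ndufa12* and *Ndufab1*, but so did other accessory subunits. *Ndufv1*, which binds NADH, rose by 0.81 and 0.78, *Ndufv2* by 1.06 and 1.01, and *Ndufs1*, which holds iron-sulfur clusters, by 0.99 and 0.98. The core subunit gene *Ndufs7* rose by 1.17 and 0.87. The accessory subunit genes *Ndufa13* (0.35 and 0.26) and *Ndufb10* (0.46 and 0.43) rose by less than these core genes. These 3 genes were named after their values were seen. *Ndufa1*, *Ndufa2*, *Ndufa7*, *Ndufb11*, and *Ndufv3*, named after their values were seen, did not pass the test in either line, and *Ndufa6* fell, by 0.34 and 0.47.

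All 4 genes of complex II, which is also the succinate dehydrogenase of the citric acid cycle, rose in both lines. *Sdhb*, its iron-sulfur subunit, was at 41.3, 39.1, and 41.7 RPKM at 0 hr and at 96.3, 110, and 94.9 RPKM at 48 hr in WT cells of the *Stat5a* line. In the *Stat5b* line it was at 43.3, 46.0, and 48.1 RPKM before and 108.1, 110.3, and 102.5 RPKM after IL-2. Both pairs of groups were apart, with rises of 1.10 ± 0.12 and 1.05 ± 0.12 (SE; log2). *Sdhd* (1.04 and 1.13) and *Sdhc* (0.92 and 0.80), which anchor the complex in the membrane, rose by a similar amount, and *Sdha*, the flavoprotein that oxidizes succinate, rose by 0.53 and 0.46.

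Complex III was uneven. Its small subunit gene *Uqcr11*, named after its value was seen, rose by 1.34 ± 0.11 and 1.24 ± 0.11, and the core protein genes *Uqcrc1* (0.82 and 0.76) and *Uqcrc2* (0.76 and 0.76) rose as well. *Uqcrfs1*, the Rieske iron-sulfur protein that passes electrons towards cytochrome c, did not pass the edgeR test in WT cells at 48 hr, with 0.13 ± 0.15 (adjusted p = 0.465) and 0.27 ± 0.15 (adjusted p = 0.115). *Uqcrh*, the hinge protein that contacts cytochrome c1, fell. It was at 234, 224, and 222 RPKM at 0 hr and at 192, 198, and 195 RPKM at 48 hr in the *Stat5a* line, and at 202, 233, and 231 before and 194, 200, and 174 RPKM after IL-2 in the *Stat5b* line. The drop was small and clear of overlap in both lines, with log2 fold changes of −0.42 ± 0.09 and −0.40 ± 0.09.

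In complex IV the largest rise was that of *Cox5a*, a matrix-facing subunit, with 49.9, 62.1, and 61.8 RPKM at 0 hr and 180, 181, and 174 RPKM at 48 hr in WT cells of the *Stat5b* line. Its rise was 1.48 ± 0.12 and 1.45 ± 0.12 in the *Stat5a* and *Stat5b* lines. *Cox5b* (0.72 and 0.72), *Cox6a1* (0.71 and 0.76), *Cox6b1* (0.88 and 0.81), *Cox6c* (0.62 and 0.71), *Cox7a2* (0.80 and 0.84), and *Cox8a* (0.63 and 0.61) rose by less. *Cox4i1*, the most abundant mRNA of the complex, rose by only 0.16 ± 0.07 (adjusted p = 0.0429) and 0.21 ± 0.07 (adjusted p = 0.00878). The muscle isoform *Cox6a2* was low from the start, with 2.55, 6.96, and 4.21 RPKM at 0 hr in WT cells of the *Stat5a* line, and it fell to 0.794, 1.18, and 1.31 RPKM (log2 fold change −2.27 ± 0.45), and by 1.59 ± 0.45 in the *Stat5b* line. Its partner *Cox6a1*, the isoform of most tissues, stood at 137.1 to 139.5 RPKM at 0 hr and 247 to 273 RPKM at 48 hr in the same libraries.

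*Cox7a2l* and *Cox6a2* were the 2 genes of complex IV that fell in WT cells by 48 hr. In WT cells of the *Stat5a* line *Cox7a2l* fell from 268, 268, and 269 RPKM at 0 hr to 182, 168, and 182 RPKM at 24 hr and 141.1, 130.8, and 141.3 RPKM at 48 hr. In those of the *Stat5b* line it fell from 251, 273, and 277 RPKM through 164, 181, and 182 to 123.4, 130.98, and 119.1 RPKM. The libraries at 0, 24, and 48 hr did not overlap, and the log2 fold changes at 48 hr were −1.17 ± 0.06 (adjusted p = 2.55e-18) and −1.27 ± 0.06 (adjusted p = 2.20e-19). *Atp5sl*, which despite its symbol encodes an assembly factor of the membrane arm of complex I, fell likewise, from 14.7, 14.2, and 15.3 to 9.80, 8.84, and 9.26 RPKM in the *Stat5a* line, by 0.87 ± 0.07, and by 1.13 ± 0.08 in the *Stat5b* line. The fall of *Uqcrh*, *Cox7a2l*, and *Atp5sl* had the same direction under every other scaling tried, while that of *Ndufa6* did not pass with limma on log2(RPKM + 1) in the *Stat5a* line (adjusted p = 0.244).

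Complex V held the most abundant of the genes that rose. *Atp5b* was at 242, 271, and 272 RPKM at 0 hr and at 608, 597, and 607 RPKM at 48 hr in WT cells of the *Stat5b* line, and it went from 252, 247, and 282 to 550, 613, and 561 RPKM in the *Stat5a* line. These groups were far apart, with log2 fold changes of 1.03 ± 0.09 and 0.93 ± 0.09. The other F1 genes rose by similar or smaller amounts, *Atp5a1* (alpha subunit) by 0.70 and 0.77 and *Atp5c1* (gamma subunit) by 0.56 and 0.59 in the *Stat5a* and *Stat5b* lines. *Atp5o*, the subunit that links F1 to the stator, rose by 0.91 and 0.86. The ring subunit c has 3 genes that encode the same mature protein, and they differed in both level and change. *Atp5g1* was the lowest at 0 hr (39.4, 40.5, and 47.5 RPKM in WT cells of the *Stat5a* line) and rose by 1.22 and 1.13, *Atp5g3* (146.9, 132.2, and 156.7 RPKM) rose by 1.18 and 1.24, and *Atp5g2* (163, 173, and 178 RPKM) rose by 0.54 and 0.47. Their sequences are close in the coding part, and reads that matched more than 1 place were not kept by the authors. The levels of the 3 genes, and their sum, may therefore be too low, by amounts that were not measured.

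The promoters of 5 genes are printed, to set the sequence beside genes that changed strongly. They are those of *Uqcr11*, *Atp5g1*, *Atp5g3*, and *Ndufa12*, which rose, and of *Cox7a2l*, which fell. Each holds 300 bases, from 250 before to 50 after the start of a RefSeq transcript, 5′ to 3′ on the strand of the gene, on GRCm38. Other RefSeq transcripts of *Atp5g1* and *Atp5g3* start farther upstream. The places are chr10:80406772-80407071 on the minus strand for *Uqcr11*, chr11:96075582-96075881 on the minus strand for *Atp5g1*, chr2:73911277-73911576 on the minus strand for *Atp5g3*, chr10:94198785-94199084 on the plus strand for *Ndufa12*, and chr17:83514284-83514583 on the minus strand for *Cox7a2l*. Capitals mark every match on either strand to any of 6 motifs. CCGGAAG is the core recognized by ETS factors such as GABP. GCGCANGCG is the motif of the factor NRF1, and AANATGGCG that of YY1. CACGTG is the E-box of MYC and related factors. TTCNNNGAA is the GAS element of STAT factors. TATAAA is the TATA box.
Uqcr11: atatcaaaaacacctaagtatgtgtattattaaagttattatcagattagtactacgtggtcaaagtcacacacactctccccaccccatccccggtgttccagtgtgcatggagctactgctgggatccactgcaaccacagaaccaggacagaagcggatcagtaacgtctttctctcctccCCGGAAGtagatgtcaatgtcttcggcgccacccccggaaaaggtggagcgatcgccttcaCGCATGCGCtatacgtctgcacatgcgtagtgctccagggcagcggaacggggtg
Atp5g1: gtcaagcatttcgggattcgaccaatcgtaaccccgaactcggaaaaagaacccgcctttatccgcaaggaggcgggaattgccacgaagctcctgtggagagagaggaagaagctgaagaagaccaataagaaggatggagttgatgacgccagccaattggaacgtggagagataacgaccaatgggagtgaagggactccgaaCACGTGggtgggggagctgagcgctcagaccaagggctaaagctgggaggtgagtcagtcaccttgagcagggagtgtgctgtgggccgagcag
Atp5g3: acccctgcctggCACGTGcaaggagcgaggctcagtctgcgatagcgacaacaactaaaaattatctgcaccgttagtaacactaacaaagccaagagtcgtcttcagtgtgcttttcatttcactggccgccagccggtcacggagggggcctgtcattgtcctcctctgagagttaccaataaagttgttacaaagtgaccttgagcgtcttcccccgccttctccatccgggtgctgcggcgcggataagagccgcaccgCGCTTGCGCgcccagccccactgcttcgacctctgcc
Ndufa12: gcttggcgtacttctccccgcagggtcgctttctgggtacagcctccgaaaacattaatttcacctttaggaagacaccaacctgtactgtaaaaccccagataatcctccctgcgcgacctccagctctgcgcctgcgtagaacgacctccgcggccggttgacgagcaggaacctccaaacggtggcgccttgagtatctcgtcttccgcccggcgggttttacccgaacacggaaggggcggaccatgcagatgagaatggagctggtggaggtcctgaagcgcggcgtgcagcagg
Cox7a2l: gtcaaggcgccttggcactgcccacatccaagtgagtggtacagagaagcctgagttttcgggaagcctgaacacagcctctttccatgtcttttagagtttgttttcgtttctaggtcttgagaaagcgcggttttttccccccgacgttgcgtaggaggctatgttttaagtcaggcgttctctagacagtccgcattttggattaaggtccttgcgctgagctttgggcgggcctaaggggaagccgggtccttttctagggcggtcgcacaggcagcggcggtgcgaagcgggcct
The *Uqcr11* window holds 1 ETS and 1 NRF1 match, the *Atp5g1* window 1 E-box, and the *Atp5g3* window 1 E-box and 1 NRF1 match, while those of *Ndufa12* and *Cox7a2l* hold none of the 6 motifs.

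Windows were found for 72 of the 85 genes, 3 of them through an older symbol. The NRF1 motif GCGCANGCG was in 22 of the 72 windows (30.6%), against 7.03% of the 27025 genes with a window and 13.5% of the 11290 tested genes with a window. AANATGGCG was in 11 (15.3%, against 2.76% and 5.17%), and CCGGAAG was in 17 (23.6%, against 9.93% and 17.8%). CACGTG was in 7 (9.72%, against 8.09% and 10.99%), TTCNNNGAA in 5 (6.94%, against 9.55% and 8.52%), and TATAAA in 5 (6.94%, against 15.7% and 9.57%). No match overlapped a match to another of these motifs. By complex, the NRF1 motif was in 8 of 33 windows of complex I, 2 of 3 of complex II, 2 of 5 of complex III, 1 of 9 of complex IV, and 7 of 15 of complex V. Genes with and without it had median log2 fold changes of 0.76 and 0.86 in WT cells of the *Stat5b* line at 48 hr, and of −0.71 and −0.74 in KI against WT cells, which are close for both groups of genes. A match is a description of the sequence, and the absence of one says only that these letters are not in the window.

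The response of the KI cells to IL-2 is given for each line, and the difference between the KI cells of the lines was not tested. By 4 hr 24 genes rose and 7 fell in *Stat5a* KI cells (25.2% and 25.2% of all genes; median 0.08), and 4 rose and 42 fell in *Stat5b* KI cells (22.8% and 25.7%; median −0.22). These counts at 4 hr moved as well. In *Stat5a* KI cells, with 2 libraries at 4 hr, 12 rose and 7 fell without 4 hr replicate 1, 24 and 1 without 4 hr replicate 2, 12 and 11 with all 48 libraries, 40 and 1 with limma on log2(RPKM + 1), and 21 and 13 with DESeq2 or its size factors. In *Stat5b* KI cells 14 rose and 4 fell with limma, 4 and 9 with all 48 libraries, 8 and 22 with no filter, 8 and 25 with the transcript with the most reads, and 8 and 37 in a fit of only the groups compared, and 9 and 19, 6 and 25, and 8 and 21 without 4 hr replicates 1, 2, and 3. Without 0 hr replicate 2 there were 4 and 24, and without 0 hr replicate 3 there were 6 and 31. In *Stat5a* KI cells 53 genes rose and 3 fell by 24 hr (29.8% and 27.7% of all genes; median 0.35), and 64 rose and 6 fell by 48 hr (31.8% and 30.6%; median 0.43), with 0 of the rises reaching 2-fold. In *Stat5b* KI cells 4 rose and 28 fell by 24 hr (21.1% and 26.7% of all genes; median −0.15), and 12 rose and 9 fell by 48 hr (24.7% and 26.9%; median 0.02). These counts in *Stat5b* KI cells moved when single libraries were left out. At 48 hr 22 rose and 3 fell without 48 hr replicate 3, 13 and 4 without 0 hr replicate 2, 18 and 3 with no filter, 23 and 1 with limma on log2(RPKM + 1), and 7 and 2 with all 48 libraries. At 24 hr the falls numbered 14 without 24 hr replicate 1 or 3, 16 without 24 hr or 0 hr replicate 2, 18 with no filter, 4 with limma, and 5 with all 48 libraries, and the rises 7 without 0 hr replicate 3 or any 1 of the 24 hr replicates. In *Stat5a* KI cells the falls at 24 hr numbered 5 without 0 hr replicate 1, 6 with DESeq2 or its size factors or only the groups compared, and 1 with limma. The falls at 48 hr numbered 3 without 48 hr replicate 3, and 2 with limma or with all 48 libraries. With all 48 libraries 34 genes rose by 24 hr. The medians from complex I to complex V at 48 hr were 0.44, 0.57, 0.29, 0.31, and 0.42 in *Stat5a* KI cells and 0.07, 0.15, −0.14, −0.09, and −0.06 in *Stat5b* KI cells. The sign of the median of the 85 genes in *Stat5b* KI cells at 48 hr depends on the scale. It was −0.01 with DESeq2 size factors, and on log2(RPKM + 1) it was 0.18, where that of all genes was 0.20. The genes that rose in *Stat5b* KI cells were led by the assembly factors *Ndufaf1* (0.81 ± 0.08) and *Ndufaf3* (0.54), and those that fell were led by *Cox6a2* (−2.10 ± 0.44) and *Uqcrfs1* (−0.63 ± 0.15).

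**Figure D3:**
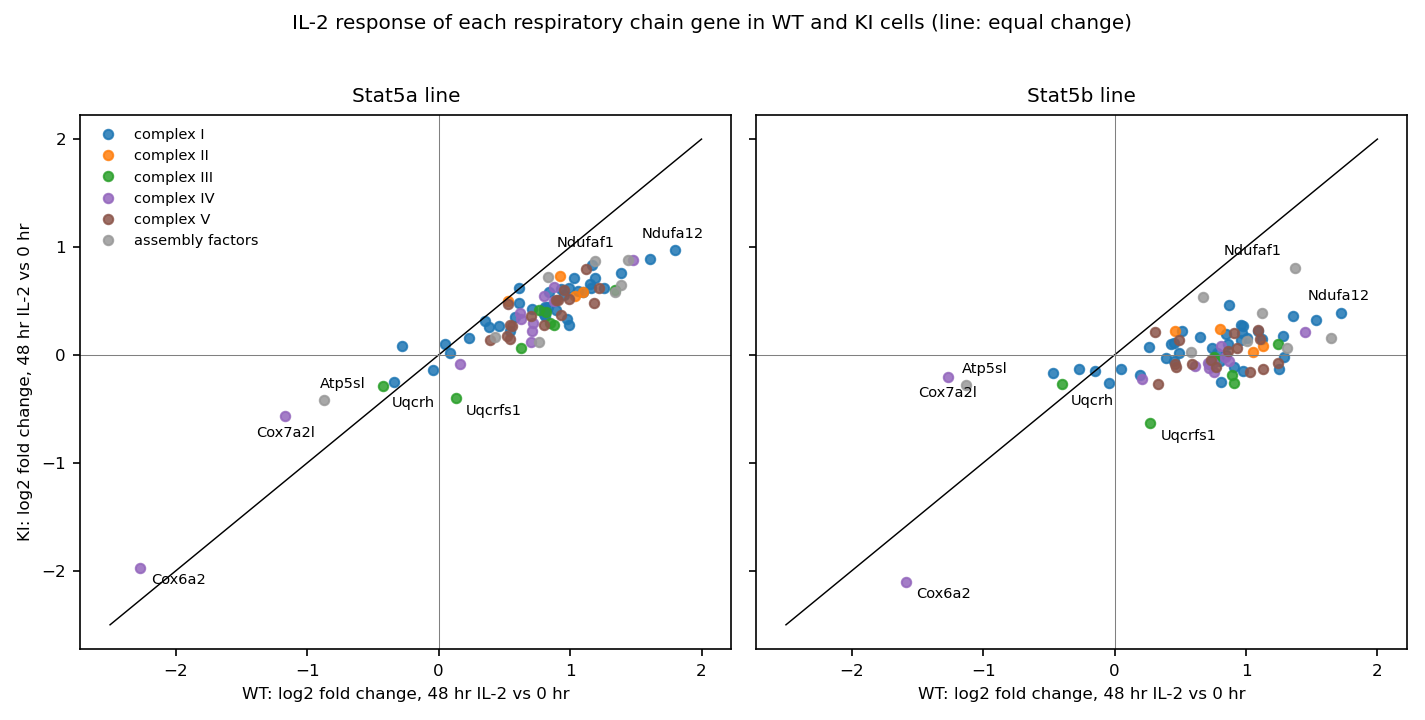
Log2 fold change with 48 hr IL-2 against 0 hr in WT cells (horizontal axis) and KI cells (vertical axis) for each of the 85 genes, coloured by complex, in the *Stat5a* line (left) and the *Stat5b* line (right). The diagonal marks an equal change. Genes that rose in WT cells lie mostly under it, nearer to 0 in the *Stat5b* line, where the median of the 85 genes in KI cells was 0.02, than in the *Stat5a* line, where it was 0.43, and *Cox7a2l* and *Atp5sl* lie above it.

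The difference between the KI and WT responses was tested for each gene at 24 and 48 hr. At 24 hr in the *Stat5a* line the edgeR test found a lower response in KI cells for 0 genes and a higher one for 1, *Cox7a2l* (0.37), with 3.3% and 1.81% of all genes and a median difference of −0.08. At an unadjusted p under 0.05 these were 3 and 1, DESeq2 gave 0 and 1, limma on log2(RPKM + 1) gave 1 and 0, and none passed with all 48 libraries or without 0 hr KI replicate 1. In the *Stat5b* line the response at 24 hr was lower in KI cells for 70 genes and higher for 2, *Cox7a2l* and *Atp5sl* (19.6% and 14.2% of all genes; median −0.66), and with all 48 libraries for 34 and 0. At 48 hr in the *Stat5a* line the response of KI cells was lower for 41 genes and higher for 2 (16.2% and 11.8% of all genes), with a median difference of −0.37, and in the *Stat5b* line it was lower for 70 and higher for 3 (25.6% and 23.8%), with a median difference of −0.77. By complex, 16 of 37, 2 of 4, 5 of 8, 5 of 12, and 9 of 16 genes were lower in the *Stat5a* line, against 29, 4, 7, 10, and 14 in the *Stat5b* line. The genes with a higher response in KI cells were *Cox7a2l* and *Atp5sl* in both lines and *Ndufa6* in the *Stat5b* line. The count in the *Stat5a* line fell to 15 with limma on log2(RPKM + 1) and to 14 when the library left out was added, and the 2 higher genes of that line became 1 and 0. These comparisons share their 0 hr and WT libraries with the others given here.

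Before IL-2 the respiratory chain genes of KI cells were close to those of WT cells. None of the 85 passed in the *Stat5a* line, where 2.56% and 0.88% of all genes were higher and lower by edgeR. At an unadjusted p under 0.05 in the same edgeR fit 0 were higher and 9 lower, and DESeq2 called none. In the *Stat5b* line *Ndufs8* (0.27) and *Cox6a2* (1.16) were higher and *Cox7a2l* (−0.23) was lower in KI cells, 2 and 1 genes against 13.6% and 9.26% of all genes. The medians were −0.07 and 0.04. At 4 hr in the *Stat5b* line 1 gene was higher and 4 were lower (14.5% and 12.8% of all genes; median −0.10). These were *Cox6a2* (1.42), and *Ndufb10* (−0.19), *Cox6a1* (−0.26), *Cox7a2l* (−0.31), and *Ndufaf4* (−0.54), of which *Ndufb10* and *Ndufaf4* are named after their values were seen.

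In the *Stat5a* line at 4 hr, 38 genes were higher and 1 was lower in KI cells (11.9% and 12.7% of all genes; median 0.25). This count rests on few libraries. The 2 KI libraries summed to 6557 and 5567 RPKM and the 3 WT libraries to 4817, 3049, and 5232 RPKM. Without KI replicate 1 only 1 gene was higher, without WT replicate 2 there were 19, with all 48 libraries 9, and in a fit of only these 2 groups 0, while with limma on log2(RPKM + 1) there were 69. The 1 lower gene, the assembly factor *Ndufaf4* (−0.42), became 10 without WT replicate 1, 5 without WT replicate 3, and 0 without KI replicate 1.

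Most of the genes were lower in KI cells at 24 hr in the *Stat5b* line and at 48 hr in both lines. The difference between the lines at 24 hr was not tested. At 24 hr 12 genes fell short of WT and 2 exceeded it in *Stat5a* KI cells (9.01% and 9.49% of all genes; median −0.14), and 75 were lower and 2 higher in *Stat5b* KI cells (26.3% and 24.1%; median −0.59). In both lines the 2 higher genes were *Cox7a2l* (0.23 and 0.40) and *Atp5sl* (0.23 and 0.33). The count of 12 was 6 without WT replicate 1, 3 without WT replicate 2, 5 without any 1 of the 3 KI replicates, and 32 in a fit of only these 2 groups. At 48 hr 67 were lower and 2 higher in *Stat5a* KI cells (22.8% and 21.5%; median −0.42, against 0.04 for all genes), and 73 were lower and 2 higher in *Stat5b* KI cells (30.5% and 33.1%; median −0.73, against 0.10). No gene was 2-fold lower in *Stat5a* KI cells, and 11 were in *Stat5b* KI cells. The summed RPKM at 48 hr was 7440 ± 389 in *Stat5a* KI cells against 9659 ± 505 in WT cells, and 6516 ± 602 in *Stat5b* KI cells against 9924 ± 341 (SD, n = 3 each). The share of mapped reads on the transcripts counted moved in the same direction, at 72.6% to 78.5% in KI against 83.2% to 84.4% in WT cells of the *Stat5b* line at 48 hr and 69.9% to 72.5% against 77.9% to 80.0% at 24 hr, without overlap, and at 77.7% to 80.6% against 80.5% to 84.1% in the *Stat5a* line at 48 hr. Its part in the summed RPKM was not tested, and the edgeR values rest on counts scaled within these transcripts. All 3 KI libraries lay under all 3 WT libraries for 72 of the 85 genes in each line, a pattern found for 26.1% and 32.1% of all genes.

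The KI effect reached all 5 complexes. At 48 hr 28 of 37, 4 of 4, 7 of 8, 9 of 12, and 13 of 16 genes of complexes I to V were lower in *Stat5a* KI cells, with medians of −0.41, −0.46, −0.55, −0.42, and −0.44. In *Stat5b* KI cells 31, 4, 7, 10, and 15 were lower, with medians of −0.62, −0.77, −0.81, −0.73, and −0.80. In each complex and line the summed RPKM of the lowest WT library was above that of the highest KI library. For complex V the WT libraries of the *Stat5b* line ranged from 3549 to 3796 RPKM and the KI libraries from 1961 to 2403 RPKM, and for complex I from 2554 to 2787 and from 1657 to 1949 RPKM.

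*Atp5b*, the most abundant mRNA of the 85, had the largest difference in RPKM between WT and KI cells. At 48 hr it stood at 608, 597, and 607 RPKM in WT and 306, 310, and 251 RPKM in KI cells of the *Stat5b* line, and at 550, 613, and 561 against 406, 380, and 366 RPKM in the *Stat5a* line. The KI libraries were lower without overlap, by 1.14 ± 0.09 (SE; log2; adjusted p = 5.97e-13) and 0.63 ± 0.09 (adjusted p = 9.49e-07). *Atp5g1* was lower by 1.22 ± 0.09 in the *Stat5b* line, *Atp5g3* by 1.17 ± 0.18, and *Atp5g2* by 0.63 ± 0.14, and the KI libraries of *Atp5g1* (52.1, 54.1, and 48.1 RPKM) were close to the 0 hr level of WT cells (39.6, 49.6, and 48.7 RPKM). *Atp5a1*, *Atp5o*, and *Atp5c1* were lower by 0.86, 0.87, and 0.60 in the *Stat5b* line and by 0.38, 0.43, and 0.39 in the *Stat5a* line.

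In complex I *Ndufab1* was at 63.1, 60.0, and 63.7 RPKM in WT and 29.7, 31.7, and 23.2 RPKM in KI cells of the *Stat5b* line. It was at 55.9, 61.1, and 55.3 against 36.3, 33.8, and 30.5 RPKM in the *Stat5a* line. No KI library reached a WT library, and the log2 differences were −1.22 ± 0.12 and −0.83 ± 0.12. *Ndufa12* was lower by 1.14 and 0.83, *Ndufv1* by 0.81 and 0.36, *Ndufv2* by 0.73 and 0.52, and *Ndufs1* by 0.73 and 0.42 in the *Stat5b* and *Stat5a* lines. Among assembly factors *Ndufaf6* had the largest log2 difference of all 85 genes, with 8.48, 8.52, and 8.94 RPKM in WT and 3.06, 3.76, and 3.34 RPKM in KI cells of the *Stat5b* line (−1.43 ± 0.16; −0.98 ± 0.16 in the *Stat5a* line). *Ndufaf2* (−1.07 and −0.90) and *Ndufaf4* (−0.97 and −0.90) were also lower in both lines.

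Most genes of complexes II, III, and IV were lower in KI cells as well. *Sdhb* was lower by 0.98 ± 0.12 in *Stat5b* KI cells, with 61.0, 61.4, and 49.1 RPKM, and by 0.64 ± 0.12 in *Stat5a* KI cells, with 71.8, 67.8, and 61.3 RPKM. *Sdhd* was lower by 1.00 and 0.63, *Sdhc* by 0.56 and 0.29, and *Sdha* by 0.28 and 0.13. In complex III *Uqcr11* was lower by 0.97 and 0.67, *Uqcrc1* by 0.78 and 0.37, *Uqcrc2* by 0.73 and 0.39, and *Uqcrfs1*, which did not change with IL-2 at the threshold in WT cells, by 0.85 and 0.51. *Uqcrh* did not pass in either line (−0.01 and −0.10). In complex IV *Cox5a* was lower by 1.04 and 0.57, *Cox6a1* by 0.89 and 0.43, *Cox7a2* by 0.89 and 0.51, *Cox5b* by 0.80 and 0.54, *Cox8a* by 0.68 and 0.33, and *Cox4i1* by 0.41 and 0.29. *Cox6c* was lower by 0.69 in the *Stat5b* line, and its value of −0.41 in the *Stat5a* line did not pass (adjusted p = 0.0909).

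*Cox7a2l* and *Atp5sl* were the only genes of the 85 called higher in KI cells at 48 hr in this edgeR fit. With all 48 libraries neither passed in the *Stat5a* line (adjusted p = 0.121 and 0.118), and in a fit of only the groups compared 4 genes were higher in the *Stat5b* line. *Cox7a2l* was at 123.4, 130.98, and 119.1 RPKM in WT and 246, 231, and 230 RPKM in KI cells of the *Stat5b* line, and at 141.1, 130.8, and 141.3 against 197, 205, and 185 RPKM in the *Stat5a* line. The KI libraries were higher without overlap, by 0.84 ± 0.06 (SE; log2; adjusted p = 5.96e-14) and 0.45 ± 0.06 (adjusted p = 3.33e-07), and those of the *Stat5b* line were near the 0 hr level of the same genotype (248, 245, and 222 RPKM). *Atp5sl* was higher by 0.71 ± 0.08 and 0.47 ± 0.07. *Cox6a2* did not pass at 48 hr (0.65 ± 0.45 and 0.69 ± 0.46), with 2.78, 1.79, and 2.28 RPKM in KI and 1.07, 1.82, and 1.24 RPKM in WT cells of the *Stat5b* line, which overlap.

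**Figure D4:**
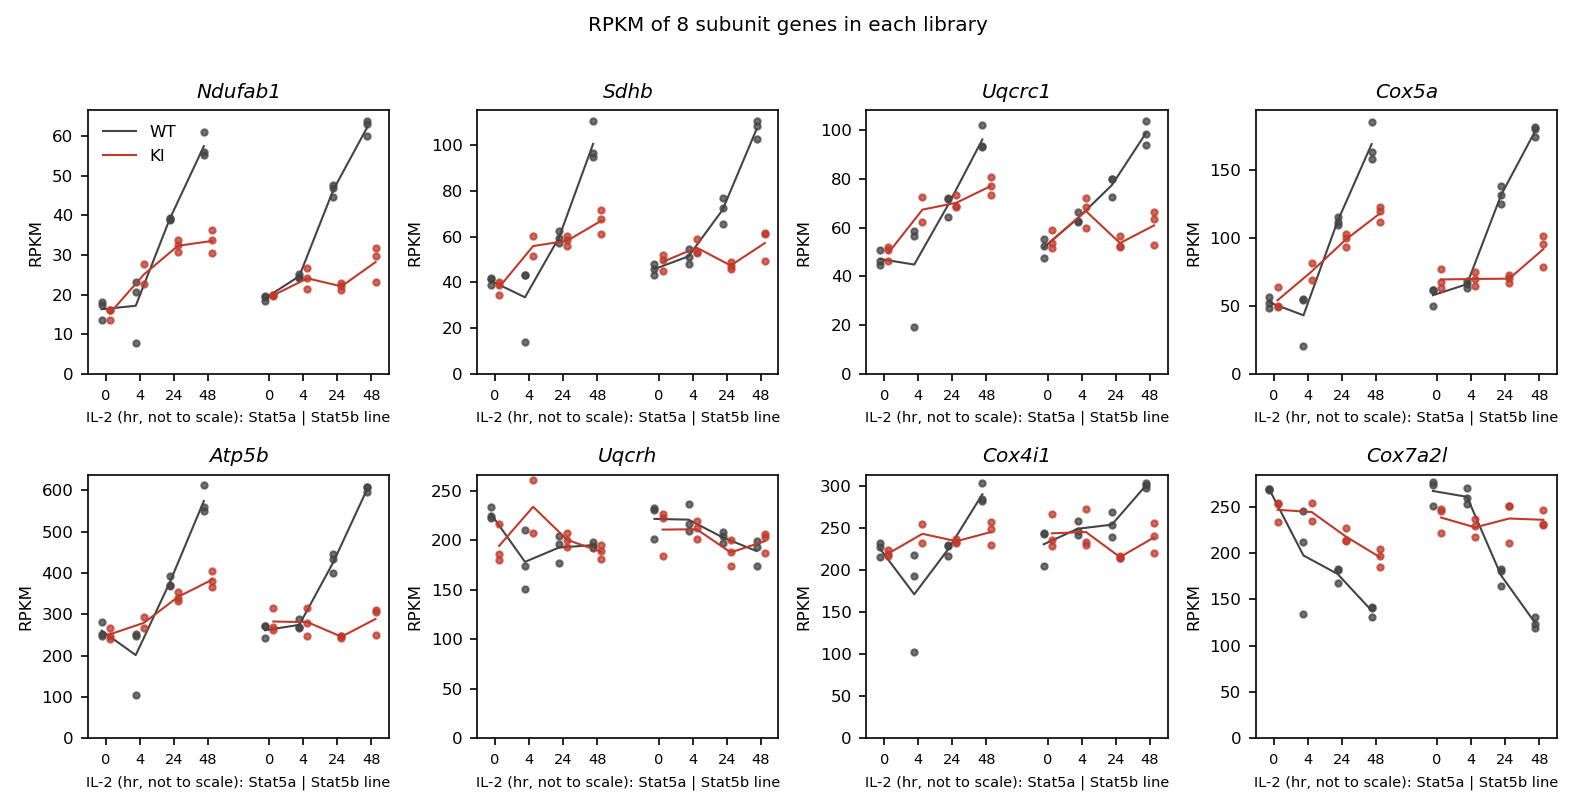
RPKM (vertical axes, from 0) of 8 subunit genes in each library against hours of IL-2 (not to scale), with the *Stat5a* line on the left and the *Stat5b* line on the right of each panel. Points are libraries, and lines join the group means of WT (dark) and KI (red) cells. *Ndufab1*, *Sdhb*, *Uqcrc1*, *Cox5a*, and *Atp5b* climb in WT cells and less or not in KI cells, *Uqcrh* and *Cox4i1* change less, and *Cox7a2l* falls in WT cells and stays higher in KI cells.

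Whether the KI effect at 48 hr was larger in the *Stat5b* line was tested as the difference of the KI effects of the lines. It was more negative in the *Stat5b* line for 12 genes and more positive for 1 (7.83% and 3.20% of all genes), with a median of −0.26 for the 85 genes and 0.00 for all genes. The 12 genes were *Atp5b* (−0.51 ± 0.13), *Atp5a1* (−0.48 ± 0.12), *Atp5o*, *Atp5g1*, and *Atp5f1* of complex V, *Uqcrq* and *Uqcrc2* of complex III, *Cox6a1* and *Cox7b* of complex IV, and *Ndufs8*, *Ndufb8*, and *Ndufs1* of complex I. The gene with the opposite sign was *Cox7a2l* (0.39 ± 0.09). No gene of complex II and no assembly factor passed. The count of 12 was 39 in a fit of only the groups compared and 0 with limma on log2(RPKM + 1), so the number of genes with a line difference is uncertain. Of the libraries at 48 hr, it was 5 without replicate 3 of the *Stat5b* KI cells, 6 without replicate 1 of the *Stat5a* WT cells, 7 without replicate 2 of the *Stat5a* KI cells or without replicate 1 or 2 of the *Stat5b* WT cells, and 19 without replicate 2 of the *Stat5b* KI cells. Founders and litters differ between the lines as well and cannot be told apart from the allele.

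Other gene groups of mitochondrial metabolism, listed by their function, moved in the same directions at 48 hr. Of all genes tested, 34.1% rose in WT cells of the *Stat5a* line and 33.1% in those of the *Stat5b* line, and 22.8% and 30.5% were lower in KI cells. Among 76 genes of mitochondrial ribosomes 73 rose in WT cells of the *Stat5a* line and 72 in those of the *Stat5b* line (medians 0.98 and 1.03), and 71 and 75 were lower in KI cells (medians −0.53 and −0.83). Of 18 genes of pyruvate dehydrogenase and the citric acid cycle 18 and 17 rose (0.61 and 0.78), and 15 and 17 were lower in KI cells (−0.40 and −0.73). Within that list *Idh3a*, a subunit of the NAD-dependent isocitrate dehydrogenase, was lower by 0.70 and 1.21, while *Idh2*, the NADP-dependent enzyme, was higher in KI cells by 0.55 and 0.49. All 11 genes of the mobile electron carriers and ubiquinone synthesis rose in the *Stat5a* line, as did 10 in the *Stat5b* line (1.30 and 1.24), and 10 were lower in KI cells of each line (−0.54 and −0.84). *Pdss1*, which makes the tail of ubiquinone, changed most, by 2.47 and 2.46 in WT cells and by −1.12 and −1.81 in KI against WT cells, and *Cycs*, cytochrome c, was lower by 1.01 and 1.48. Of 39 other assembly factors of the complexes 29 rose in WT cells of each line (0.76 and 0.75), and 19 and 27 were lower in KI cells (−0.30 and −0.49).

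Glycolysis and the regulators of mitochondrial biogenesis were listed for comparison. Of 21 glycolysis genes 17 rose in WT cells of each line (medians 1.24 and 1.44), and 16 were lower in KI cells of each line (−0.73 and −1.19). Their members ranged wider than those of the respiratory chain, with *Hk2*, a hexokinase, lower by 1.62 and 2.55 and *Ldhb*, the lactate dehydrogenase subunit of oxidative tissues, higher by 0.61 and 1.22 in KI cells of the *Stat5a* and *Stat5b* lines. Of 19 regulators 10 rose and 4 fell in WT cells of each line (0.22 and 0.25), where 37.7% and 36.8% of all genes fell, and 8 and 10 were lower in KI cells (−0.11 and −0.26). *Ppargc1a*, a coactivator that is nearly silent here (0.185 RPKM in KI and 0.067 in WT cells), was the 1 higher regulator in *Stat5b* KI cells (1.38 ± 0.43). *Myc* rose by 1.08 and 1.99 in WT cells and was lower by 0.56 and 1.20 in KI cells, and *Pprc1*, a coactivator of mitochondrial genes, was lower by 0.46 and 1.09. *Nrf1*, which encodes the factor named above, was lower in *Stat5b* KI cells (−0.42), and its value in the *Stat5a* line, −0.11, did not pass. Of 26 symbols listed for the genes encoded by mitochondrial DNA 0 were in the files, so these genes could not be analysed.

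Markers of other cell types moved with genotype and time and are set beside these results. Their summed RPKM was higher in KI than in WT cells. For 6 B cell genes, of which *Cd79a* was the most abundant in KI cells, it was 114.3 (111.4 to 117.6) in *Stat5b* KI against 11.2 (9.94 to 11.97) in WT cells at 48 hr, and 100 (91.0 to 107.97) against 25.4 (11.9 to 35.7) in the *Stat5a* line. For 9 myeloid genes, led by *Lyz2* in KI cells, it was 86.4 (66.3 to 105.6) against 3.71 (3.22 to 4.58) and 39.6 (24.3 to 69.5) against 5.76 (3.15 to 7.91). For 6 erythroid genes, led by *Hbb-bs* in KI cells, it was 162 (110.8 to 206) against 6.21 (4.71 to 8.27) and 19.6 (17.9 to 22.5) against 7.22 (6.40 to 8.02). For 3 CD4 T cell genes, led by *Cd4*, it was 13.5 against 1.45 and 9.20 against 2.69, and for 3 NK cell genes 45.6 against 16.3 and 39.6 against 24.7. The NK sum was carried by *Tyrobp*, which myeloid cells express as well, whereas *Klrb1c* was lower in KI cells, with group means of 2.69 against 6.61 RPKM in the *Stat5b* line and 5.11 against 7.82 RPKM in the *Stat5a* line. Ncr1 was higher in KI cells, with 8.19 against 1.87 RPKM and 9.67 against 5.19 RPKM, so that 2 of the 3 NK genes were called higher and 1 lower in each line. By edgeR 6 of 6 erythroid genes were higher in KI cells of the *Stat5b* line at 48 hr, and 0 of 6 passed in the *Stat5a* line. At 48 hr the 5 T cell and CD8 genes, led by *Cd8b1*, were also higher in KI cells, at 1579 (1498 to 1667) against 1044 (1030 to 1062) in the *Stat5b* line and 1567 (1505 to 1661) against 1107 (1062 to 1184) in the *Stat5a* line.

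Before IL-2, when the respiratory chain genes differed little, the summed B cell and myeloid markers were already higher in KI cells of both lines. At 0 hr in the *Stat5b* line the B cell sum was 201 in KI and 50.8 in WT cells, the myeloid sum 152.95 and 37.1, and the erythroid sum 644 and 70.3 RPKM, and 6 of 6 B cell, 8 of 9 myeloid, and 6 of 6 erythroid genes were higher in KI cells, whereas 3 of the 85 respiratory chain genes passed in either direction. The 5 T cell and CD8 genes were all lower in these KI cells (sums of 986 against 1244 RPKM; median −0.36), the opposite of 48 hr. In the *Stat5a* line at 0 hr the B cell sums were 221 to 271 RPKM in KI and 49.8 to 145.7 RPKM in WT cells, and the myeloid sums 85.3 to 147.3 and 33.9 to 62.7 RPKM, without overlap. All 6 B cell and 9 myeloid genes had positive values there (medians 1.21 and 1.30), while by edgeR 1 of 6 B cell, 0 of 9 myeloid, and 0 of 6 erythroid genes passed, and 2 of the 5 T cell and CD8 genes were lower. In WT cells the B cell, myeloid, and erythroid sums were lower at 48 hr than at 0 hr, while the respiratory chain rose. In KI cells of the *Stat5a* line 3 of 6 B cell and 5 of 9 myeloid genes were higher at 4 hr (medians 1.13 and 1.45). At 24 hr 6 of 6 and 8 of 9 were higher (1.62 and 1.99), and 0 of 6 erythroid genes passed at either time. In KI cells of the *Stat5b* line 6 of 6 B cell, 9 of 9 myeloid, and 6 of 6 erythroid genes were higher at 24 hr. The part of other cell types in the KI differences at 4, 24, and 48 hr was not tested.

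**Figure D5:**
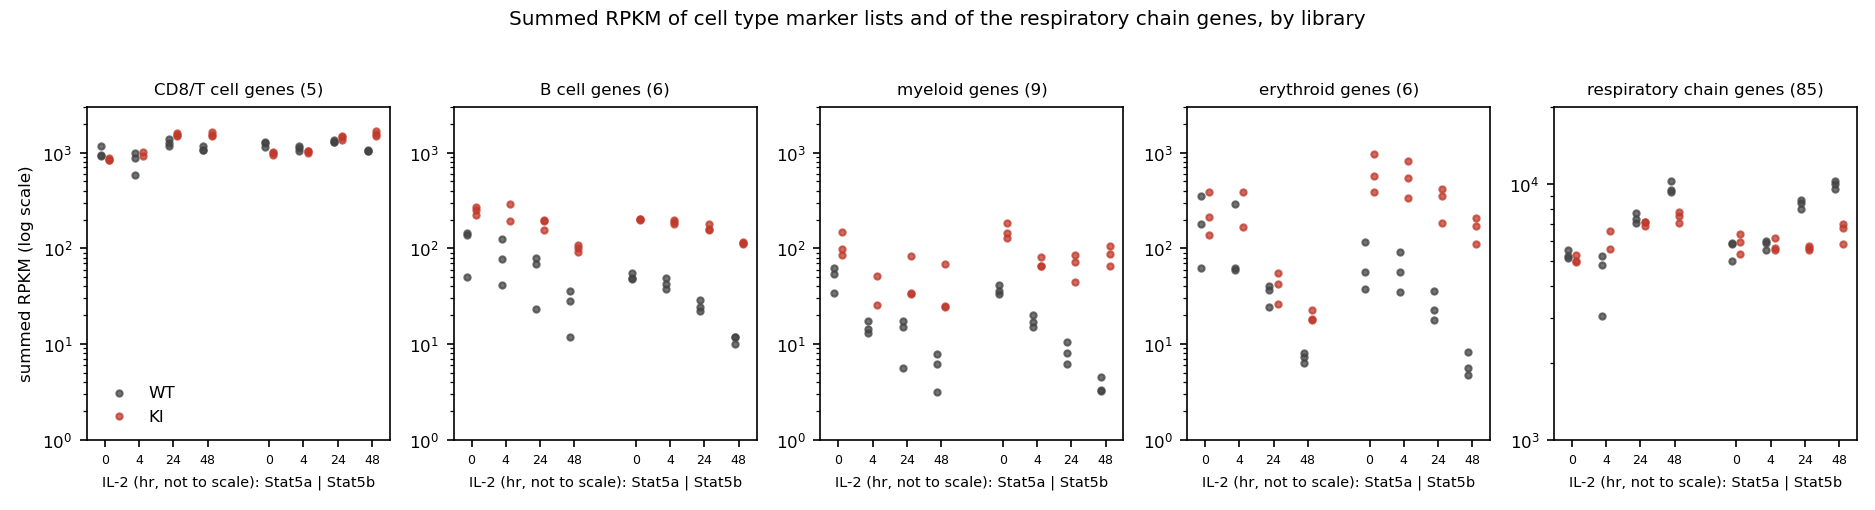
Summed RPKM (log scale) of 4 cell type marker lists and of the 85 respiratory chain genes in each library, against hours of IL-2 (not to scale) for the *Stat5a* line (left of each panel) and the *Stat5b* line (right). Dark points are WT and red points KI libraries. B cell, myeloid, and erythroid sums are higher in KI cells of the *Stat5b* line at all 4 times, while in that line the respiratory chain sums overlap at 0 hr and are lower in KI cells at 24 and 48 hr.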

How the data were processed

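RNA-seq counts of 48 libraries were analysed, 47 of them in the reported tests. Reads of 50 bp from 1 end were aligned to mm10 (GRCm38) by the authors with TopHat2 2.0.11. They kept uniquely mapped reads and deposited a count and an RPKM for each of 31682 RefSeq transcripts. In the deposited RPKM each count is scaled to the length of the transcript and to all mapped reads. The counting program and the use of strand are not given in the sources used here, so reads of a gene and of an antisense partner cannot be told apart. Isoforms that share an exon share its reads in these counts, so each gene is represented by its longest transcript.

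Counts were tested with edgeR 4.0.16 in R 4.3.3 (TMM, filterByExpr with a minimum count of 10, glmQLFit and glmQLFTest, 1 mean per group), with Benjamini-Hochberg adjustment over 15566 genes. The standard error of a log2 fold change was taken from the F statistic. Depths cover counting error only. The scripts were tested on simulated data. Named genes are the core and isoform genes of each complex and, for each 48 hr comparison, the 3 genes with the largest rise and fall among those called without overlap between groups. A few genes of the rule and the lists enter the counts but are not reported by name here. Genes outside this rule, among them *Uqcr11*, *Ndufa6*, *Ndufaf1*, and *Ndufaf3*, were named after their values were seen. The genes, lists, and rules were chosen with earlier results of these data known. Promoters are from RefSeq (GRCm38.p6).

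Alternatives were DESeq2 size factors, DESeq2 1.42.0, no filter, limma 3.58.1 on log2(RPKM + 1), the transcript with the most reads, all 48 libraries, only the groups compared, the replicate block, each library left out, and assembly factors counted apart. Deviations of same-numbered libraries from their group means were correlated with those at 0 hr. In WT cells of the *Stat5a* line the correlations were 0.206, 0.273, and 0.419 at 24 hr and 0.166, 0.117, and 0.192 at 48 hr. In KI cells of this line they were 0.195, 0.076, and 0.158 at 24 hr and 0.185, 0.066, and 0.128 at 48 hr. Between KI and WT cells they ranged from −0.223 to 0.074 over both lines. Whether replicate numbers mark pairs was not tested. The STAT5 ChIP-seq of the study was not used here. Figures were drawn with matplotlib 3.10.9.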

Additional observations from a re-analysis of the deposited data

Results flagged for a closer look

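The IL-2 response at 48 hr differed between KI and WT cells by the test of the difference itself. It was smaller in KI cells for 41 respiratory chain genes in the *Stat5a* line and for 70 in the *Stat5b* line (16.2% and 25.6% of all genes). It was higher for 2 and 3 genes (11.8% and 23.8%). At 24 hr the same test gave a smaller response in KI cells for 70 genes in the *Stat5b* line and a higher one for 2 (19.6% and 14.2% of all genes). In the *Stat5a* line it gave a smaller response for 0 genes and a higher one for 1, *Cox7a2l* (3.3% and 1.81%). The KI effect at 48 hr differed between the lines, by the same kind of test, for 12 genes that were lower in the *Stat5b* line (7.83% of all genes). The log2 differences (*Stat5b* minus *Stat5a*) were −0.51 for *Atp5b*, −0.48 for *Atp5a1*, −0.47 for *Uqcrq*, −0.46 for *Cox6a1*, −0.44 for *Atp5o*, −0.41 for *Atp5g1*, −0.38 for *Ndufs8*, −0.36 for *Ndufb8*, −0.36 for *Cox7b*, −0.34 for *Uqcrc2*, −0.31 for *Ndufs1*, and −0.28 for *Atp5f1*. For *Cox7a2l* the difference was 0.39, in the opposite direction (3.20% of all genes). The count of 12 was 0 with limma on log2(RPKM + 1) or with all 48 libraries, and 39 in a fit of only the groups compared. With 2 or 3 libraries in a group, no test for a library far from its group was run.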

How the results depend on the processing

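The rise in WT cells at 24 and 48 hr, the lower level in KI cells at 24 hr in the *Stat5b* line and at 48 hr in both lines, and the smaller 48 hr response of *Stat5b* KI cells kept their counts within 1.5 times under every alternative run. Elsewhere counts moved, and the cause was not tested. With only the groups compared in the fit, the genes that rose at 4 hr numbered 1 (*Stat5a* line) and 14 (*Stat5b* line), those lower in KI cells of the *Stat5a* line 0 (4 hr) and 32 (24 hr), and the genes with a line difference 39. With limma on log2(RPKM + 1), 19 rose at 4 hr in the *Stat5b* line, 0 and 3 were lower in *Stat5a* KI cells at 4 and 24 hr, 0 and 1 in *Stat5b* KI cells at 0 and 4 hr, 15 had a smaller response in *Stat5a* KI cells, and 0 had a line difference. With all 48 libraries these were 5, 2 and 2, 0 and 1, 14, and 0. DESeq2 gave 21 lower genes in *Stat5a* KI cells at 24 hr and 2 in *Stat5b* KI cells at 0 hr, the transcript with the most reads gave 19 and 2 and, for *Stat5b* KI cells at 4 hr, 2, and no filter gave 2 and 2 for *Stat5b* KI cells before IL-2 and at 4 hr. Counted without assembly factors, 0 genes were lower in *Stat5a* KI cells at 4 hr.

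With 1 library left out in turn, 9 to 19 genes rose at 4 hr in the *Stat5a* line. The genes lower in *Stat5a* KI cells numbered 0 to 1 at 0 hr (1 without KI replicate 2), 0 to 10 at 4 hr, and 3 to 16 at 24 hr, and those lower in *Stat5b* KI cells 1 to 3 at 0 hr (3 without WT replicate 1 and 2 without KI replicate 2) and 2 to 3 at 4 hr (2 without WT replicate 2 or 3 or KI replicate 1 or 3). The smaller response in *Stat5a* KI cells held for 28 to 48 genes and the line difference for 5 to 19. For the 36 genes that the naming rule selects, 857 of 864 values with a library left out and 1108 of 1152 values under the other settings kept their direction and their side of the threshold, and 0 reversed. With the replicate block, 74 and 72 genes rose at 48 hr in the *Stat5a* and *Stat5b* lines, and 67 and 73 were lower in KI cells. In *Stat5a* KI cells at 24 hr 15 were lower, and the block changed no count by over 1.5 times. The block gives each replicate number an effect shared by all groups, so it cannot decide whether pairing within a line and genotype matters. The comparison of KI with WT cells at 4 hr in the *Stat5a* line is limited to 2 and 3 libraries, and depth limits most the members with the lowest levels, *Atp5s* and *Cox6a2*.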

Other observations

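At 24 hr the related gene groups were already lower in *Stat5b* KI cells, with 74 of 76 genes of mitochondrial ribosomes (median −0.65), 17 of 18 of pyruvate dehydrogenase and the citric acid cycle (−0.54), 9 of 11 of electron carriers and ubiquinone synthesis (−0.64), and 16 of 21 of glycolysis (−0.63), beside 26.3% of all genes. In *Stat5a* KI cells at the same time 13, 2, 4, and 8 genes of these groups were lower, beside 9.01% of all genes.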
